A study of Mus musculus with 8 samples.

Results

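The genes described here build and hold together the microvilli that cover the apical face of intestinal epithelial cells. The set had 10 members, fixed by name: Cdhr2, Cdhr5, Ush1c, Myo7b, Pls1, Vil1, Espn, Eps8, Ezr and Myo1a. Probes were assigned through the array's annotation, where older names such as Pcdh24 for Cdhr2, Mupcdh for Cdhr5 and Vil2 for Ezr were accepted. In all, 12 probes named 9 of the 10 members, out of 17711 genes named on the array, and no probe used here named Myo1a, a membrane-linked myosin motor of the brush border. A gene was tested where its brightest probe was detected on at least 4 of 8 arrays, which left 9494 genes and 8 of the members. These 8 members were detected on 7 or 8 arrays each, so they passed through both groups of samples.

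A microvillus is a finger of plasma membrane held up by a bundle of parallel actin filaments. Plastin 1, villin and espin cross-link the filaments, ezrin ties the bundle to the membrane, and Eps8 sits at the filament tips. Neighbouring microvilli are joined at their tips by a link between the protocadherins Cdhr2 and Cdhr5, whose tails are gathered by the scaffold Ush1c (harmonin) and the motor Myo7b, a relation of the proteins that link stereocilia in the inner ear.

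RNA came from laser-captured epithelium of the distal colon of wild-type male C57BL/6 mice aged 10 to 12 weeks, with no treatment stated in the labels. There were 4 samples from the luminal surface and 4 from the crypt base, numbered 1 to 4 in each group, and the series' design text has 4 mice giving 1 sample of each kind. The RNA passed through successive amplification steps before hybridisation to Illumina bead arrays, so a level is a relative signal. The comparison asks how expression changes as cells pass from the base of the crypt to its mouth, where the mature absorptive colonocytes lie.

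Markers fixed with the lists were read before the members. Over all genes tested 12.1% rose and 10.1% fell. Of 4 surface colonocyte markers tested 4 rose, and their summed linear signal was 9208 to 12958 at the surface against 2309 to 4321 at the crypt base. Slc9a3, one of these 4, overlapped between surface (8.91 to 10.45) and crypt base (6.60 to 9.36). It was not called in limma without the replicate number as a block (adjusted p = 0.1175). Krt20, a keratin that marks surface cells, was under background on all 8 arrays. Of 4 proliferation markers 3 fell, with sums of 190.4 to 386.6 at the surface and 433.7 to 581.0 at the crypt base. One of these, Top2a, was under background in all 4 surface samples. Judged by signal, it passed the filter only through the crypt base, so it had to differ. It was at least 1.18-fold higher there. Of 4 epithelial markers, Krt8 rose and the rest did not pass. Their sums were 9270 to 11338 at the surface and 5588 to 8103 at the crypt base, and most of each sum was Krt8, so the gap between these ranges largely restates its rise. Of 5 smooth muscle markers none passed, and the median change was -0.84, with sums of 1949 to 11405 and 6240 to 24328. The tuft cell sums, of interest because tuft cells also carry a villin-rich apex, were 199.0 to 278.2 and 186.8 to 289.8, with 0 of 4 markers passing and Pou2f3 under background. Goblet cell markers rose in 2 of 5, with sums of 26891 to 40387 and 13690 to 33820. Clca1, which rose, overlapped between the groups and was not called in limma without the replicate number as a block (adjusted p = 0.179). Fcgbp, which did not pass, read 4.67 in surface 4 and 8.40 to 9.31 in the other surface samples. Of 5 endothelial markers Plvap rose, by 0.60 (adjusted p = 0.0114), with sums of 759.1 to 926.4 and 582.6 to 843.4. Of 5 fibroblast markers Col3a1 rose, by 0.55 (adjusted p = 0.0278), with sums of 1312 to 1777 and 1198 to 2634. None of 5 leukocyte markers passed (sums of 1683 to 5405 and 1788 to 4591, with Ptprc under background), nor did any of 5 enteroendocrine markers (1304 to 1895 and 1626 to 2160). The part of these other cell types in the members' values was not tested. On array surface 4 a total of 199 probes differed by over 2 on the log2 scale from their median across the remaining arrays, compared with 6 to 34 on every other array. None of the member probes was among these. In captured tissue, fewer cells of a type and less RNA per cell cannot be told apart.

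All 8 members that could be tested rose at the surface, and none fell. At an adjusted p of 0.05 in limma with the replicate number as a block, 12.1% of the 9494 genes were higher at the surface. The median change of the 8 members was 0.75 on the log2 scale, against -0.01 over the genes tested. In 7 of the 8 every surface value lay above every crypt base value, which held for 9.72% of the genes tested, and 8 of 8 were higher at the surface in each of 4 pairs, which held for 21.6%. The members fell into a set with changes of 1.32 to 1.58 (Pls1, Cdhr2 and Cdhr5) and a set with changes of 0.60 to 0.76 (Vil1, Ezr, Myo7b, Espn and Ush1c). This division was made after the values were seen and uses the brightest probe of each gene. A second Pls1 probe changed by 0.74.

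Other settings moved the count of members called higher. Without the block 7 of the 8 were called, where 7.25% of all genes tested were higher and 6.1% lower. With no filter on detection, which let Eps8 into the fit, 7 of 9 were called, beside 5.86% of the genes, and with array weights 8, beside 14.8%. Without replicate 3 it was 6, beside 6.73%, and without replicate 4 it was 6, beside 6.11%. Without replicate 1 limma called 0 of the 9494 genes, of which 2512, and 8 of 8 members, had an unadjusted p under 0.05.

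**Figure D1:**
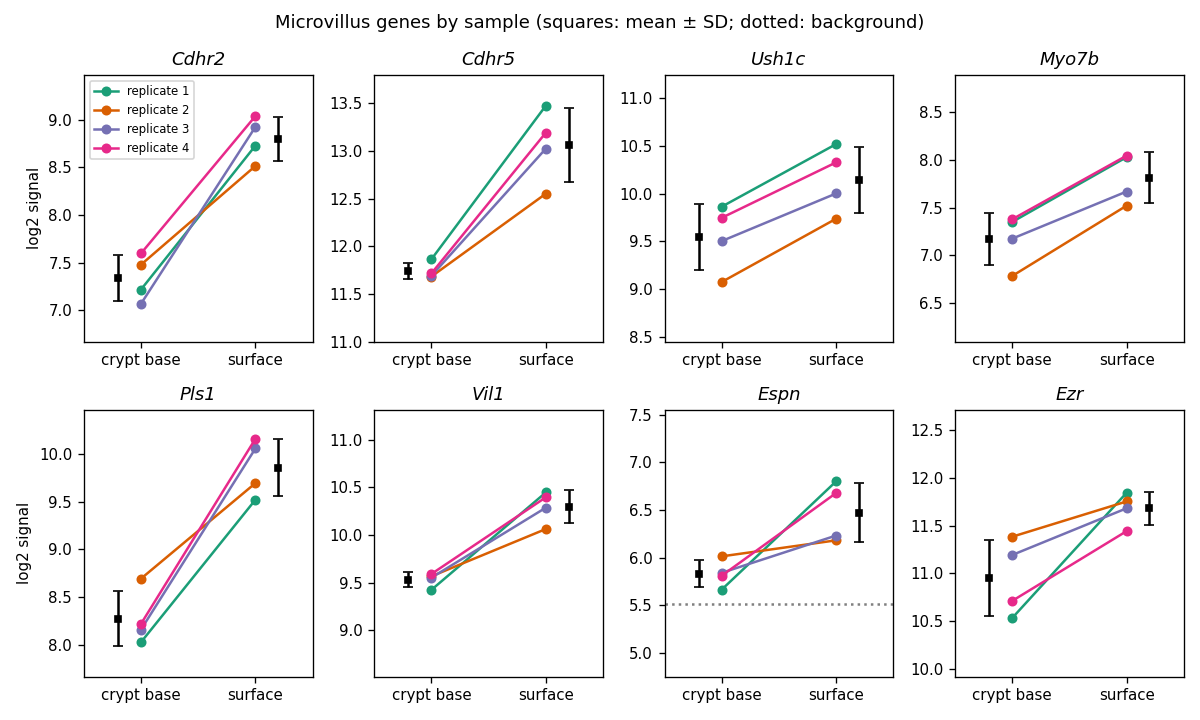
Log2 signal of the 8 members tested, at the crypt base and at the surface, with a line for each of the 4 replicate numbers, squares for the mean with SD (n = 4) and a dotted line for background where it falls in range. Each panel spans the same number of log2 units, every line climbs, and only for Ush1c do the ranges of the groups overlap, by 0.13.

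The 3 members with the largest rises are shown with the 250 bases before their annotated start, to let their upstream sequence be set beside their shared rise. The sequences are RefSeq's, build GRCm38.p6, read 5′ to 3′ on the gene's strand, and capitals mark any match to the motifs searched.
Cdhr2, chr13:54701213-54701462, plus strand: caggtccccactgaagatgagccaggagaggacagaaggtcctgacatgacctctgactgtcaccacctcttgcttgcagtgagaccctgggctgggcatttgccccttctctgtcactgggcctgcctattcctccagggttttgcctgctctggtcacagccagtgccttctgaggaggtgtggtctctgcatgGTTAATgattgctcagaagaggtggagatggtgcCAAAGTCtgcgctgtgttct
Cdhr5, chr7:141276787-141277036, minus strand: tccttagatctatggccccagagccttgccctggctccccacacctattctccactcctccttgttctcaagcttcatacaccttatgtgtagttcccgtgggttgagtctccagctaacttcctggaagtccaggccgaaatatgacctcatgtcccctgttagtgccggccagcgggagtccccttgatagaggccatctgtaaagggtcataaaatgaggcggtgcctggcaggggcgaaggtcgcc
Pls1, chr9:95845280-95845529, minus strand: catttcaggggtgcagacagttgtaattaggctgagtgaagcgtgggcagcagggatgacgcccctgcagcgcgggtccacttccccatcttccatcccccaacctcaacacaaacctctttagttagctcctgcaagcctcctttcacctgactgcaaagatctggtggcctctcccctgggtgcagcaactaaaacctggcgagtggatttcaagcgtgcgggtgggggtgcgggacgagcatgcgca
The capitals in Cdhr2 are GTTAAT, which begins 54 bases before the start, and CAAAGTC, which begins 20 bases before it. The windows of Cdhr5 and Pls1 hold no match.

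The motifs searched on both strands were CAAAGTN for HNF4, TTTATNG for CDX factors, GTTAAT for HNF1, AGATAA for GATA factors, GGGTGTG for KLF factors and CTTTGAT for TCF factors. Read on its other strand, the TCF motif can share letters with that of HNF4. The table held 10 promoters of 8 members, of which 3 were Espn's, and 32851 promoters in all. These are not the 8 members tested: they include Myo1a, which no probe named, and lack Myo7b and Eps8. The HNF4 motif was in 1 of the 10 (Cdhr2) and in 12.5% of all promoters, HNF1 in the same 1 against 6.43%, CDX in 1 (Espn) against 9.81%, KLF in the same Espn promoter against 6.93%, and GATA and TCF in 0 against 9.99% and 3.21%. A match is a description of letters and shows no binding.

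The protocadherins of the tip link were among the members that rose most. Cdhr2 (gene ID 268663), a protocadherin of the tip link, had log2 signals of 8.73, 8.51, 8.92 and 9.04 in surface samples 1 to 4 and of 7.22, 7.48, 7.07 and 7.60 at the crypt base. The lowest surface value exceeded the highest crypt base value by 0.92, the widest gap of any member. The crypt base mean was 7.34 ± 0.24 (SD, n = 4) and the surface mean 8.80 ± 0.23. Cdhr2 rose by 1.46 ± 0.14 (SE), which is 2.75-fold (adjusted p = 0.00739). Among the genes tested this was the 54th largest rise.

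Cdhr5 (gene ID 72040), the partner of Cdhr2, had surface signals of 13.48, 12.55, 13.02 and 13.19 and crypt base signals of 11.86, 11.68, 11.69 and 11.72. The crypt base samples were tightly grouped, with an SD of 0.08, whereas the surface samples spread with an SD of 0.39 and surface 2 was lowest. Cdhr5 rose by 1.32 ± 0.13, or 2.50-fold (adjusted p = 0.00739). The 95% confidence intervals of the changes were 1.13 to 1.79 for Cdhr2 and 0.999 to 1.65 for Cdhr5, and the difference between the partners was not tested.

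The adaptor and the motor that hold the tails of these protocadherins rose by less. Ush1c (gene ID 72088), a PDZ-domain scaffold, had surface signals of 10.52, 9.74, 10.00 and 10.33 and crypt base signals of 9.86, 9.07, 9.50 and 9.75. The groups overlapped, because surface 2 lay below crypt base 1 and crypt base 4, yet each surface sample exceeded the crypt base sample of its own number. The change was 0.60 ± 0.07, or 1.52-fold (adjusted p = 0.00813). This call was lost once the block was dropped (adjusted p = 0.107). A further Ush1c probe was under background on all 8 arrays.

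Myo7b (gene ID 17922), an unconventional myosin of microvillus tips, had surface signals of 8.03, 7.52, 7.67 and 8.04 and crypt base signals of 7.35, 6.78, 7.17 and 7.38. The surface values all lay above the crypt base values, by 0.14 at the closest, and Myo7b rose by 0.64 ± 0.08, or 1.56-fold (adjusted p = 0.00787). Its order of replicates resembled that of Ush1c: for both genes, samples numbered 2 were lowest and those numbered 3 next lowest in each region. With each gene's values centred on their mean over the 8 arrays, the profiles of Ush1c and Myo7b lay a root mean square distance of 0.10 log2 units apart. This was the smallest distance between any members, but non-members lay about as near to each of them, Itga3 at 0.09 from Ush1c and Esrra at 0.09 from Myo7b.

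Among the actin bundlers, read on their brightest probes, Pls1 rose most and Vil1 and Espn rose by less. Pls1 (gene ID 102502), the plastin of the brush border, had surface signals of 9.52, 9.70, 10.06 and 10.16 and crypt base signals of 8.03, 8.69, 8.16 and 8.22. The groups stood 0.83 apart at their nearest, and the change of 1.58 ± 0.17 was 3.00-fold (adjusted p = 0.00749), the 37th largest rise of the genes tested. A second, dimmer Pls1 probe, with signals of 5.94 to 6.27 at the crypt base and 6.50 to 7.10 at the surface, changed by 0.74 ± 0.15 in a fit of every detected probe (adjusted p = 0.0251), which is 47.0% of the change of the brighter probe. That change lies within the 0.60 to 0.76 of the members with smaller rises. The crypt base signals of this probe were near background (5.52), and the part of this in its smaller change was not tested.

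Vil1 (gene ID 22349), which encodes villin, a protein that bundles, caps and severs actin filaments, had surface signals of 10.44, 10.06, 10.28 and 10.39. At the crypt base they were 9.42, 9.56, 9.55 and 9.59, with an SD of 0.07, the smallest of any tested member. Vil1 was thus well above background in both regions and rose by 0.76 ± 0.10, or 1.70-fold (adjusted p = 0.00922).

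Espn (gene ID 56226), the bundler known from stereocilia as well as brush borders, was the dimmest member tested. Its signals were 6.80, 6.18, 6.23 and 6.68 at the surface and 5.66, 6.01, 5.84 and 5.81 at the crypt base. The groups were separated by 0.17. The change of 0.64 ± 0.17, or 1.56-fold, was the least secure of the 8 (adjusted p = 0.0442). It did not pass without replicate 3 (adjusted p = 0.0765) or replicate 4 (0.131), nor with 16 added to the linear signal (0.0514) or no filter on detection (0.0530).

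Ezr (gene ID 22350), which links the actin bundle to the membrane, had surface signals of 11.85, 11.75, 11.68 and 11.44. At the crypt base its signals were more spread, at 10.53, 11.38, 11.19 and 10.71, and surface 4 exceeded crypt base 2 by just 0.06. Ezr rose by 0.73 ± 0.16, or 1.65-fold (adjusted p = 0.0278), and in the fit of every probe a second Ezr probe gave 0.67 ± 0.08 with groups that stood 0.54 apart (adjusted p = 0.00954). The call on the first probe was lost without replicate 3 (adjusted p = 0.0593) and without replicate 4 (0.0780). Eps8, the capping and bundling protein of filament tips, could not be followed: its only probe read between 5.19 and 5.49, under background on all 8 arrays, which does not show that the transcript is absent.

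The size of the rise varied between replicate numbers. Replicate 2 gave the smallest surface minus crypt base difference for 6 of the 8, namely Pls1 (1.002), Vil1 (0.50), Ezr (0.37), Cdhr2 (1.04), Cdhr5 (0.87) and Espn (0.17). For Myo7b the same replicate gave the largest difference, 0.74 against 0.49 to 0.68 in the others, and for Ush1c replicates 1 and 2 both gave 0.66, above 0.50 and 0.58. The surface colonocyte markers also differed least in replicate 2, with a median difference of 1.13 against 1.87 to 2.29 in the others. In each replicate the smallest difference among Pls1, Cdhr2 and Cdhr5 exceeded the largest among the other 5 members, by 1.49 to 1.31 in replicate 1, 0.87 to 0.74 in replicate 2, 1.33 to 0.73 in replicate 3 and 1.44 to 0.87 in replicate 4. Those 3 were grouped for their larger changes, so this is a description and not a test. It also holds for the brightest probes only: the second Pls1 probe differed by 0.67, 0.23, 1.16 and 0.91 in replicates 1 to 4. Smooth muscle markers differed by a median of -1.14, -1.44 and -1.18 in replicates 1, 2 and 4 and by 0.25 in replicate 3. The median difference of the members was 1.23, 0.70, 0.62 and 0.84 in replicates 1 to 4.

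**Figure D2:**
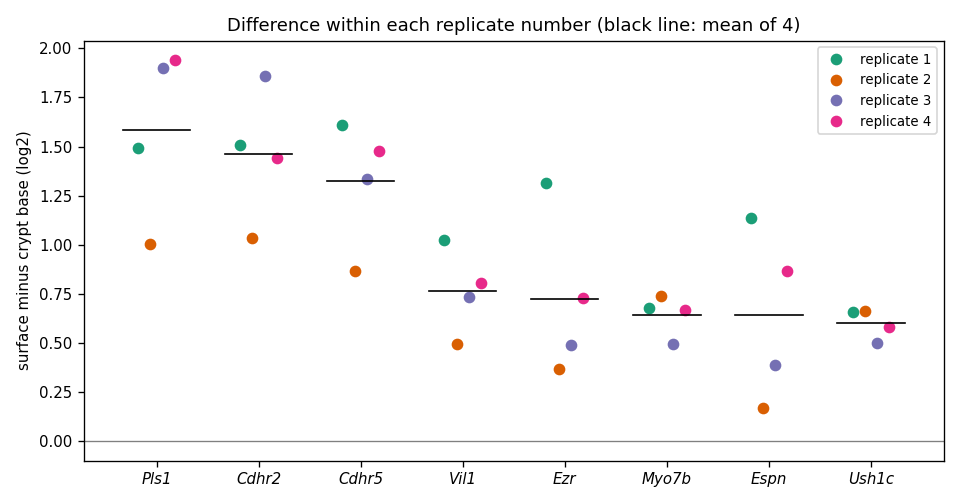
Difference in log2 signal between the surface and the crypt base sample of each replicate number (4 dots per gene) and their mean (black line), for the 8 members in order of mean change. Every dot lies above 0, and the orange dots of replicate 2 are lowest for 6 members, highest for Myo7b and level with replicate 1 for Ush1c.

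The members were also set against the epithelial markers. With each array centred on the mean of Epcam, Cdh1, Krt8 and Krt18, a scale chosen after seeing the data, the median change over all genes tested moved from -0.01 to -0.44. On that scale 401 genes were called higher at the surface (4.22%) and 6787 lower, against 1147 and 963 on the deposited scale, and 4 of the 8 members were called higher. Pls1 changed by 1.16, Cdhr2 by 1.03, Cdhr5 by 0.89 and Vil1 by 0.34 (adjusted p = 0.00351 for Pls1, Cdhr2 and Cdhr5 and 0.0275 for Vil1). The remaining 4 kept a positive value but did not pass, with 0.30 for Ezr, 0.22 for Myo7b, 0.21 for Espn and 0.17 for Ush1c. Epcam was near background, with means of 5.68 and 5.40, and Krt8 itself rose by 0.79, so this scale depends on few genes.

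**Figure D3:**
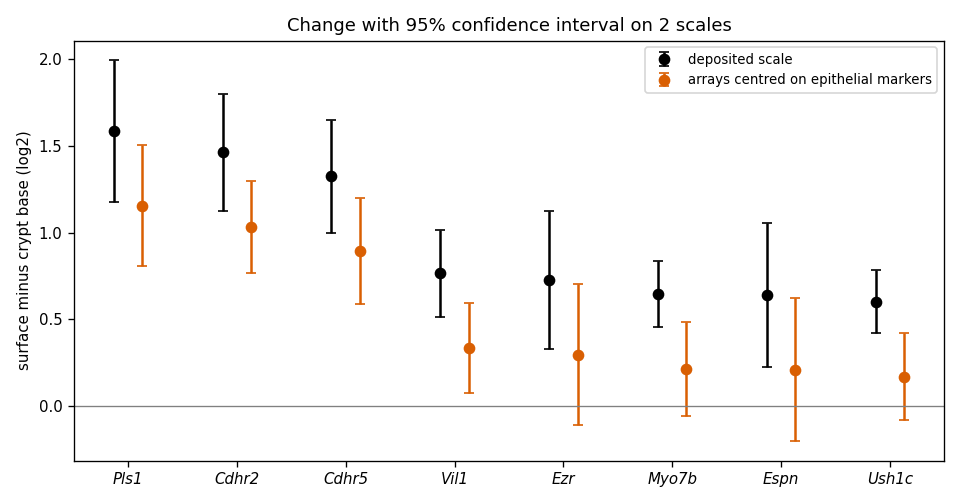
Change between crypt base and surface (log2, with 95% confidence interval) of the 8 members on the deposited scale (black) and with arrays centred on 4 epithelial markers (orange). The intervals of Pls1, Cdhr2, Cdhr5 and Vil1 lie above 0 on both scales, and those of Ezr, Espn, Myo7b and Ush1c reach below 0 on the second.

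The 5 non-member genes whose centred profile over the 8 arrays lay nearest to the median profile of the members were Pyroxd1, Tff3, Vill, Fam214b and Abhd2. Their root mean square distances were 0.06, 0.08, 0.08, 0.08 and 0.10 log2 units. Of the members Vil1 was nearest to that profile, at 0.06, and Pls1 farthest, at 0.47. Vill encodes a villin-like protein and Tff3 a trefoil peptide of goblet cells, and their changes were 0.90 and 0.91.

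Further genes of the microvillus and its anchorage were read from a list of 62, of which 47 were tested. Of these 16 rose, 2 fell and 29 did not pass, with a median change of 0.19. The share that rose, here and in each subgroup below, can be read against the 12.1% of all genes tested that rose. Of all genes, 10.1% fell. Centred on the epithelial markers, 11 of these 47 genes were called higher and 17 lower. On that scale 4.22% of all genes tested were higher, and 6787 of the 9494 were lower. Krt8 and Krt18 are among these 47 and also help to set that scale, and Krt8 is among the 11.

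Of the adhesion partners, Anks4b, an ankyrin-repeat protein that joins the tip complex, was under background in all 4 crypt base samples (mean 5.22) and read 5.71, 5.75, 5.67 and 6.47 at the surface. Its fitted change was 0.68 (adjusted p = 0.0163). Taken against the background level, its surface mean of 5.90 was 1.30-fold higher, and surface 4 raised that mean. Anks4b was detected on 4 arrays only. Judged by signal, it passed the detection filter through the surface alone, where it is high. It thus had to differ, and its place among the 16 is no support for that count. Cdh17, an intestinal cadherin, changed by 0.51 ± 0.07 and was also close to background, and it missed the threshold with no block (adjusted p = 0.0719). It was detected on 5 arrays and read under background on 3, all at the crypt base. Judged by signal, Cdh17 thus passed the filter mainly through the surface, where it is high. Its place among the 16 is no support for that count either. Calml4, a calmodulin-like light chain of Myo7b, read 10.34, 9.94 and 10.12 in surface samples 1 to 3 and 9.71 to 10.12 at the crypt base, but 4.60 in surface 4. Its change of -1.18 ± 1.004 did not pass (adjusted p = 0.453), and without replicate 4 it was 0.25 (0.170).

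Among bundling, capping and nucleating proteins 5 of 13 rose and 0 fell. Eps8l3, a relation of Eps8, rose by 1.15 ± 0.12 with signals of 8.27 to 8.99 at the surface and 7.03 to 7.54 at the crypt base. Cobl, an actin nucleator, rose by 0.91 ± 0.12, though not without the block (adjusted p = 0.0940), and Vill by 0.90 ± 0.10. Other plastin and villin relations did not pass: Pls3 changed by -0.22 ± 0.09 and Avil by 0.15 ± 0.11, and Lcp1 and Gsn were under background on every array.

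Of 7 ERM proteins, scaffolds and kinases 0 fell and 1 rose, which is near the share of all genes tested (12.1%). The gene that rose was Stk10, a kinase that phosphorylates ezrin and its relations. It changed by 1.21 ± 0.12, or 2.32-fold (adjusted p = 0.00739), with all surface signals (6.92 to 7.54) above the crypt base signals (5.93 to 6.37). The ezrin relations moesin (Msn) and radixin (Rdx) had changes of -0.20 ± 0.08 and -0.23 ± 0.15 and did not pass (adjusted p = 0.128 and 0.342). Dimmer second probes of Msn and Rdx gave 0.06 and 0.02 in the fit of every probe and did not pass either. The differences between these changes and that of Ezr were not tested.

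Of 7 motors and light chains 2 rose, Myo5b, which carries apical membrane, by 0.99 ± 0.08 and Myl6 by 0.43 ± 0.10. Myl6 was not called without the block (adjusted p = 0.281), with the block as a random effect at an estimated correlation (adjusted p = 0.108), without replicate 3 (0.0699) or without replicate 4 (0.0968), and on the epithelial scale its change was 0.0047. Of 12 terminal web and rootlet genes 5 rose and 1 fell. Among those that rose, Krt19 (0.79) and Tpm3 (0.32) were not called without the block (adjusted p = 0.0874 and 0.0856). Tpm3, at 0.0468 in the main fit, was also lost without replicate 2 (0.0984), 3 (0.0971) or 4 (0.0811). It did not pass with the mean of its probes (0.143) or with no filter on detection (0.0579). Actn4 rose by 1.02 ± 0.10, the non-muscle myosin gene Myh14 by 0.98 ± 0.13 and Krt8 by 0.79 ± 0.13, while Actn1, the other alpha-actinin of non-muscle cells, fell from 7.40 ± 0.23 to 6.86 ± 0.15, a change of -0.54 ± 0.12 (adjusted p = 0.0281). A second Actn4 probe changed by 0.49. The call on Actn1 was lost without replicate 2 (adjusted p = 0.0692) and without replicate 4 (0.0946), and smooth muscle, whose markers had a median change of -0.84, also makes Actn1. The part of smooth muscle in this fall was not tested. The probes of Actb, for beta-actin, disagreed in sign. The brightest changed by 0.26 ± 0.08 and did not pass (adjusted p = 0.0646), and in the fit of every probe the others gave 0.39 (adjusted p = 0.177), -0.61 (0.524) and -0.58 (0.0379). Of these the probe at -0.61 was far from the other arrays in surface 3 and surface 4, and the probe at -0.58, which was called, was near background.

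Prom1, a protein of membrane protrusions, rose by 0.96 ± 0.12. Of the stereocilia relations of the tip complex 0 of 3 rose. Cdh23 and Pcdh15, near background, changed by 0.09 and 0.0037, and Whrn, a scaffold related to Ush1c, fell by 0.39 on the log2 scale (adjusted p = 0.0274, and 0.162 without the block, 0.0696 without replicate 3 and 0.110 without replicate 4).

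**Figure D4:**
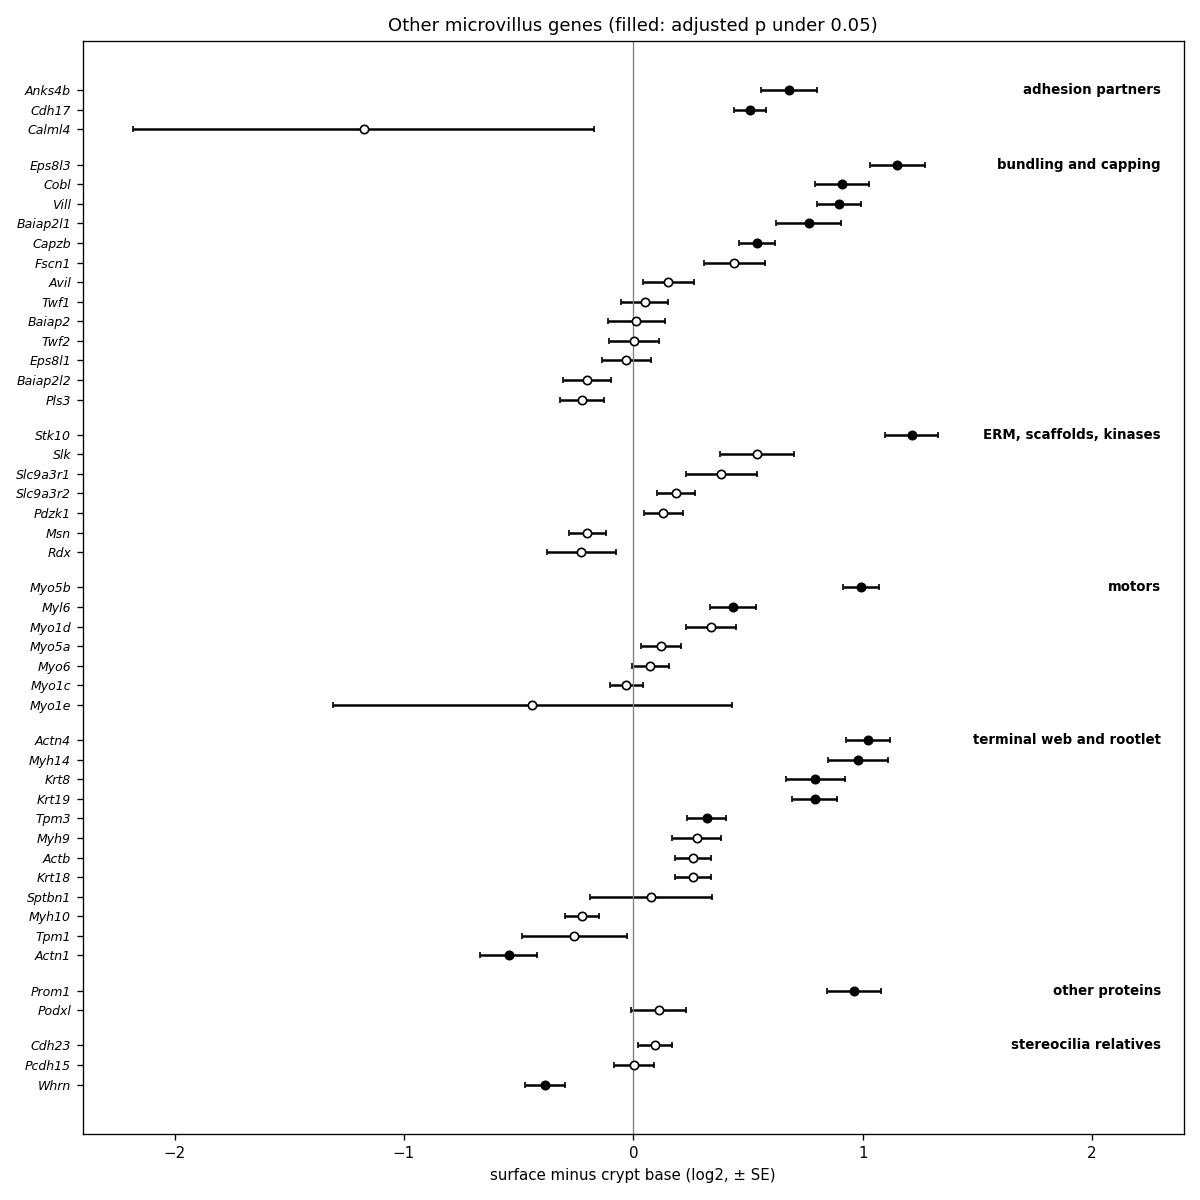
Change between crypt base and surface (log2, ± SE of the fit) of the 47 other microvillus genes tested, grouped by role, with filled dots for an adjusted p under 0.05. The 16 filled dots to the right of 0 lie in every group but the stereocilia relations, Actn1 and Whrn are the filled dots to the left, and the widest bars are those of Calml4 and Myo1e, which were under background in surface 4 alone.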

How the data were processed

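Log2 signals of 46632 probes on 8 Illumina arrays were used as the authors deposited them. The submitters' processing notes name GenomeStudio, with no version. The normalization of the arrays and any subtraction of background are not given in the sources used here. Sorted from low to high, the 8 columns agreed within 0.01 at 99.0% of positions, so their distributions had been made equal. A second table gives every probe a signal and a detection p-value per array, per the file headers. Its 8 signal columns carry names found in no label and were left out. Its deposited detection p-values, taken to come from the same 8 arrays, gave each probe the number of arrays with a p under 0.05. As many values exceeded a log2 signal of 5.52 as had such a p, and this level is called background. The level and the detection p-values did not match for every probe. Slc26a3, for example, was detected on 5 arrays with signals of 9.89 to 12.58. The detection columns name no sample, so the group through which a gene passed the filter was judged by signal.

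Probes were named from the platform annotation, with symbols updated by gene ID through RefSeq (GRCm38.p6): 29976 probes had 1 symbol, 10 several and 16646 none. Each gene took its probe with the highest mean, kept where detected on at least 4 arrays. The difference between regions was fitted in R 4.3.3 by limma 3.58.1 (lmFit and eBayes, replicate number as fixed block, two-sided, Benjamini-Hochberg over 9494 genes, threshold 0.05), with statmod 1.5.0 for a random block. The fit was tested on simulated data. The labels do not say that the number marks the mouse: across genes, the deviations from the group mean of the 2 samples sharing a number correlated at 0.45, 0.39, -0.04 and 0.48 for numbers 1 to 4, so the pairing rests on the design text. The number of arrays limits the precision. Raw signals and chip positions were not analysed here. Named were all members, in each subgroup of the wider list the largest changes past the threshold (up to 3 in each direction), Anks4b and Calml4, the 5 genes of nearest profile and markers. Pls3, Avil, Lcp1, Gsn, Msn, Rdx, Actb, Krt19, Tpm3, Cdh23, Pcdh15, Itga3 and Esrra were named after their values were seen. The members and lists were chosen with earlier results of these data known. The alternatives changed the block, scaling, pseudocount, detection filter, probe choice, array weights and replicates included.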

Additional observations from a re-analysis of the deposited data

Results flagged for a closer look

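In groups of 4 samples, 7 of 114 groups held a sample far from the other 3, and chance flags about 1 in 20. None of the 20 groups of the 10 member probes detected on at least 4 arrays did. The Eps8 probe and the second Ush1c probe were not among these groups. Eps8 read 5.23 in surface 4 against 5.46 to 5.49 in the other surface samples, all under background. In array surface 4, Calml4 read 4.60 against 9.94 to 10.34 in the other surface samples and Myo1e read 4.68 against 9.60 to 9.85, both under background, while Anks4b read 6.47 against 5.67 to 5.75 and Krt19 read 10.27 against 9.49 to 9.57. The detection p-values nevertheless counted Calml4 and Myo1e as detected on all 8 arrays. Without replicate 4 the change of Myo1e went from -0.44 to 0.79 (limma, adjusted p = 0.0317). Myo5a was highest in both samples numbered 1, at 6.39 (surface, others 5.74 to 5.79) and 6.04 (crypt base, others 5.72 to 5.74). Pcdh15 read 5.55 in crypt base 3, against 5.67 to 5.68 in the others. The causes were not tested.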

How the results depend on the processing

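The 8 members tested kept a positive change in every fit in which they were included. The count of members called higher went from 8 to a range of 0 to 8 when 1 replicate was left out. It was 0 without replicate 1, where no gene of the 9494 was called in limma (lowest adjusted p = 0.05002) although 2512 genes, 8 of them members, had an unadjusted p under 0.05. It was 6 without replicate 3 and 6 without replicate 4, where Espn and Ezr did not pass. Without the replicate block 7 members passed and Ush1c did not, and with 16 added to the linear signal or with no filter on detection 7 passed and Espn did not (without the filter Eps8 entered the fit and did not pass either). Centred on the epithelial markers, a scale added after seeing the data, 4 members were called higher. Median centring, repeated quantile normalization, the mean of a gene's probes, testing every probe, array weights and a random block left the member count at 8, and detection on all 8 arrays left 7 members in the fit and 7 called. The share of all genes called higher was 12.1% with median centring and with repeated quantile normalization, and 12.2% with the random block. It was 11.9% for the mean of probes, 11.7% for every probe, 14.8% with array weights and 13.4% for detection on all 8 arrays. With 16 added it was 12%, and without replicate 2, where 8 members were called, it was 12.2%. Over the other microvillus genes, the calls higher ranged from 0 to 17 and those lower from 0 to 1 when 1 replicate was left out, against 16 and 2. Without the block these calls were 11 higher and 1 lower, and on the epithelial scale 11 and 17. With detection on all 8 arrays, which left fewer of these genes in the fit, they were 12 and 1. Over all genes tested, 1147 were higher and 963 lower. These counts were 688 and 579 without the block, and ranged from 0 to 1157 and 0 to 1146 when 1 replicate was left out (639 and 404 without replicate 3, 580 and 219 without replicate 4). On the epithelial scale they were 401 and 6787, as the whole distribution moved down by construction. Background correction of raw signals and the chip as a block were not run, since no column used held raw signals and nothing ties samples to chips. The causes of the other changes were not tested.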
